A study of Mus musculus with 61 samples.

Results

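Young neurons and dividing cells of the adult mouse brain were followed here with 7 genes, Dcx, Sox11, Sox4 and Igfbpl1 for the first and Mki67, Top2a and Ube2c for the second. The genes were found by symbol through the RefSeq accession that each array probe carries, and where a gene had several probes, the probe with the highest mean signal over the arrays was used. Of the 7 genes, 6 matched a probe, out of 16358 genes matched in all. Mki67 had no matched probe, so it was not analysed here.

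Each array measured the RNA of 1 fraction, a slab 1 mm thick made of 200 sections of 5 µm, and 61 fractions were cut from the brains of 6 male C57BL/6J mice aged 8 weeks, with no treatment and no genetic change. A whole brain gave 1 series: C (13 fractions) and Co (16) ran from posterior to anterior, S (9) and So (10) from left to right, and H (6) and Ho (7) from dorsal to ventral, and the o series were cut slightly obliquely. There was 1 mouse per series, so that each plane rests on 2 mice. The methods match 56 of the fractions into 28 pairs, each with 1 fraction from each mouse of a plane (the labels number the S fractions 2 to 10, here S1 to S9 as in the pairing), and these pairs are called c1 (posterior) to c13 (anterior), s1 to s9 and h1 to h6. Partners were those with the highest correlation of the array values, and fraction order decided where several matched 1 fraction. S9 was placed in the S series by its title, while its source name names another set than those of S1 to S8. A fraction mixes every cell type at its level, and in such a slab more cells of a type and more RNA per cell cannot be told apart.

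In the adult rodent forebrain, stem cells in the wall of the lateral ventricle give rise to dividing transit cells and then to neuroblasts. The neuroblasts migrate forward in the rostral migratory stream to the olfactory bulb, where they become granule and periglomerular interneurons. The dentate gyrus of the hippocampus is the other well known site where neurons are born in adult rodents. Dcx encodes a microtubule-binding protein of migrating neurons, Sox11 and Sox4 are related transcription factors of newborn neurons, Igfbpl1 is a secreted protein related to insulin-like growth factor binding proteins, Top2a is the DNA topoisomerase that untangles chromosomes in dividing cells, and Ube2c is the ubiquitin-conjugating enzyme that works with the anaphase-promoting complex in mitosis.

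Values are log2 signals from which the 75th percentile of the array was subtracted, so that 0 is the signal at that percentile, and they order the fractions for 1 probe but not the genes against each other. The coronal zones were the rostral end (c12 and c13, 4 arrays), the frontal and striatal level (c8 to c11, 8 arrays) and the rest behind it (c1 to c7, 14 arrays). Marker lists were set against these zones. All 11 matched olfactory bulb genes were higher at the rostral end than in c1 to c11, among them Tbx21 by 7.86, Doc2g by 7.10 and Cdhr1 by 6.28 (log2 differences), markers of mitral and tufted cells. The summed linear level of that list was 143 to 192 in the 4 rostral arrays and 12.2 to 33.2 in the 22 others. All 8 striatal genes were higher at the frontal and striatal level than in c1 to c7, with Drd1, a dopamine receptor, by 4.78 and a median of 2.12.

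In the coronal plane the 4 neuroblast genes were higher at the rostral end than in c1 to c11 and at the frontal and striatal level than in c1 to c7. For Sox11 the second difference came largely from low levels in c1 to c4. Ube2c in both mice and Top2a in the C mouse had their highest coronal fraction at c10, behind the bulb, and Top2a in the Co mouse at c9. Differences between zones were tested with limma's moderated test over the pair means, with Benjamini-Hochberg adjustment over 36573 probes. All 6 genes varied over the 28 pairs (61.3% of all probes did). At the rostral end 5 of 6 were higher than in c1 to c11 (background 17.8% of probes), and at the frontal and striatal level 6 of 6 were higher than in c1 to c7 (background 18.0%). At the rostral end 4 of 6 were higher than at the frontal and striatal level (background 17.3%). None of the 6 was lower in any of these comparisons, by the adjusted p or at an unadjusted p under 0.05, against 20.6%, 21.0% and 19.3% of all probes lower. The median differences of the 6 genes were 1.92, 1.23 and 1.41, beside −0.04, −0.04 and −0.02 over all probes.

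**Figure D1:**
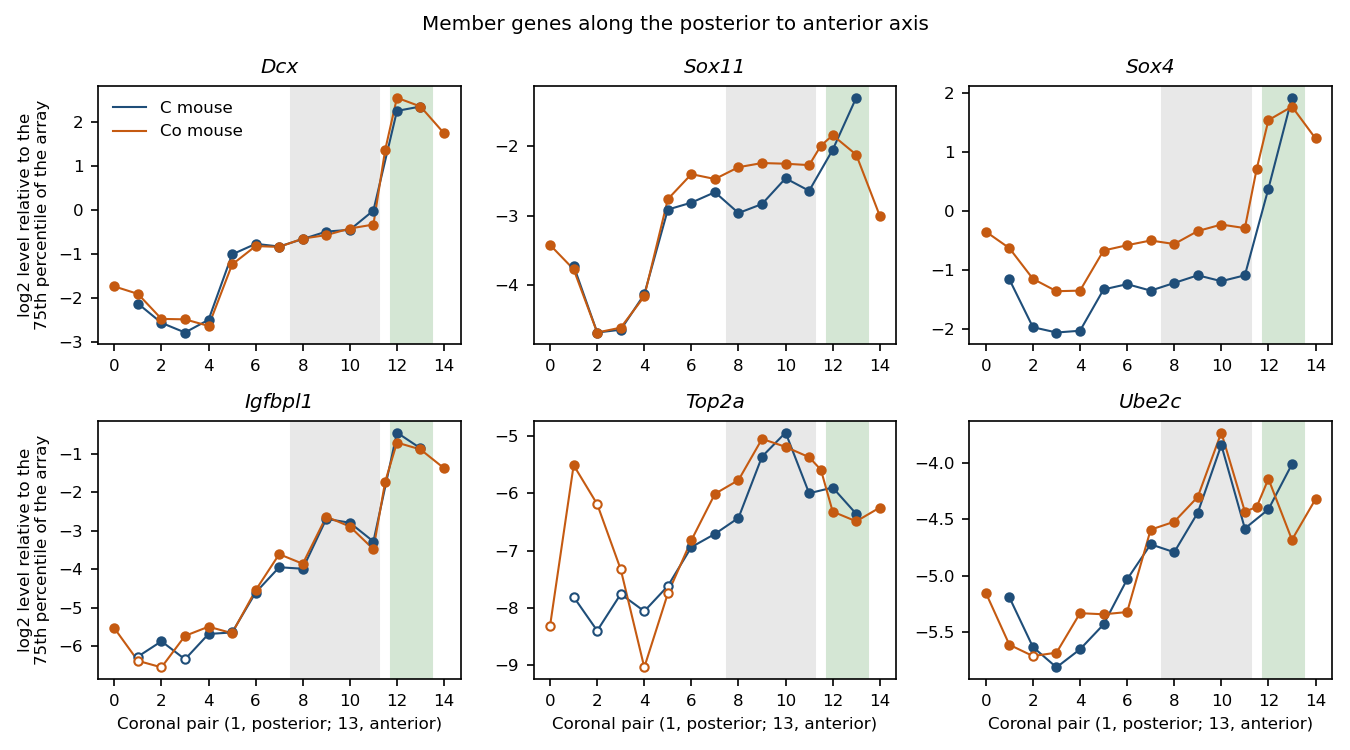
Log2 level of 6 genes relative to the 75th percentile of the array (vertical axis, its range set per gene) against the coronal pair from posterior to anterior (horizontal axis), blue for the C mouse and orange for the Co mouse, 1 point per array. Filled points were well above background and open points were not. The grey band marks c8 to c11 and the green band c12 and c13. Co1, Co13 and Co16 have no partner and stand at 0, between 11 and 12, and at 14. Dcx, Sox4 and Igfbpl1 step up at c12 in each mouse, while Ube2c peaks at c10.

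Dcx (chrX:143855842-143933396 in GRCm38.p6, the build of the RefSeq table used for positions) was well above background on all 61 arrays. In the rostral fractions C12, C13, Co14 and Co15 it stood at 2.26, 2.36, 2.56 and 2.36. At the frontal and striatal level the 8 arrays ran from −0.66 over a median of −0.47 to −0.01, and in c1 to c7 the 14 arrays ran from −2.79 over −2.02 to −0.77. The 3 zones thus did not overlap for Dcx. The rostral end was higher than c1 to c11 by 3.68 ± 0.19 (log2, SE), a fold of 12.9 (adjusted p = 3.9e-16), and by 3.60 in the C mouse and 3.77 in the Co mouse. Against the frontal and striatal level it was higher by 2.83 ± 0.21 (95% interval 2.40 to 3.26, 7.12-fold, adjusted p = 2.5e-12). The frontal and striatal level was itself higher than c1 to c7 by 1.34 ± 0.15 (2.53-fold, adjusted p = 1.3e-08).

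The rise of Dcx toward the front came in steps. From −2.50 in C4 and −2.64 in Co5 it went to −1.01 in C5 and −1.24 in Co6, and it then stayed between −1.24 and −0.33 up to Co12 in the Co mouse. The unpaired Co13, which lies between c11 and c12, had 1.37, and the unpaired Co16, the most anterior of all fractions, had 1.75, below Co14 and Co15. Another Dcx probe, which was well above background on 38 arrays, ran along with the first over the 61 fractions (r = 0.96) and was higher at the rostral end by 3.04 ± 0.16. A further probe was well above background on 1 array and is not used.

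Sox11 (chr12:27334268-27342718), a gene with a single exon, was also well above background on all 61 arrays. It stood at −2.05, −1.30, −1.84 and −2.12 in C12, C13, Co14 and Co15, from −2.96 over a median of −2.38 to −2.24 at the frontal and striatal level, and from −4.68 over −3.75 to −2.40 in c1 to c7. The lowest fractions, C2 and Co3 at −4.68 each, lay near the posterior end. Sox11 was higher at the rostral end by 1.37 ± 0.17 (2.58-fold, adjusted p = 8.2e-08) and at the frontal and striatal level by 1.11 ± 0.14 (2.16-fold, adjusted p = 8.2e-08). In the Co mouse these 2 differences were 1.10 and 1.29. Their baselines differ (c1 to c11 and c1 to c7), so they do not order the 2 zones. The difference at the frontal and striatal level came largely from c1 to c4, with pair means of −4.68 to −3.75. Those of c5 to c7, −2.83 to −2.56, overlapped those of c8 to c11, −2.63 to −2.36. The step from the frontal and striatal level to the rostral end was 0.66 ± 0.19 (1.59-fold, adjusted p = 0.0061), and it rests on the C mouse, with 1.04 there and 0.28 in the Co mouse. Without the C mouse the step did not pass the threshold, and with the scan day as a block it was 0.40 (adjusted p = 0.092). It also did not pass with the unpaired fractions added (0.17, adjusted p = 0.52), with c11 to c13 as the rostral end (0.47, adjusted p = 0.055), or in the lowest case with 1 fraction left out (0.46, adjusted p = 0.10).

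The 3 Sox11 probes gave unlike answers in front. The second probe followed the first (r = 0.92), yet its rostral step over the frontal and striatal level was 0.19 ± 0.23 (adjusted p = 0.58). The remaining probe (r = 0.60) gave 1.67 ± 0.22 (adjusted p = 2.9e-07). In Co16 the first probe fell back, below all 8 arrays of the frontal and striatal level, while the remaining probe stood at −2.74, close to its −2.50 in Co14. Where these probes lie along the transcript was not determined here.

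Sox4 (chr13:28948919-28953699), with 1 probe well above background on all 61 arrays, also had its highest levels in front. It stood at 0.38, 1.92, 1.54 and 1.77 in C12, C13, Co14 and Co15, and at 1.23 in Co16. The frontal and striatal arrays ran from −1.22 over a median of −0.82 to −0.23, and those of c1 to c7 from −2.06 over −1.28 to −0.50, so that these 2 zones overlapped widely. The rostral end was higher than c1 to c11 by 2.47 ± 0.24 (5.52-fold, adjusted p = 7.4e-10) and higher than the frontal and striatal level by 2.15 ± 0.27 (4.44-fold, adjusted p = 1.2e-07). C12 alone, scanned on the same day as C1 to C11, was above those 11 by 1.81. The difference between the frontal and striatal level and c1 to c7 was 0.49 ± 0.20 (1.41-fold, adjusted p = 0.045). It did not pass the threshold without the C mouse (0.54) or the Co mouse (0.45), where each coronal pair held 1 array. Nor did it with normexp and quantile normalization (0.44, adjusted p = 0.061), with all probes (0.49, adjusted p = 0.051) or without moderation (0.49, adjusted p = 0.052). With c9 to c11 as that level it was 0.50 (adjusted p = 0.069), and in the lowest case with 1 fraction left out 0.37 (adjusted p = 0.16). It did pass with the mouse as a replicate block (0.49, adjusted p = 3.7e-04) and with the scan day as a block (0.49, adjusted p = 1.6e-04). In 12 of the 13 coronal pairs the Co mouse lay above the C mouse, by 0.53 to 1.16.

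Igfbpl1 (chr4:45809507-45826827) was not measured in every fraction. Its probe was well above background on 52 of 61 arrays, and the 9 others lay at the posterior, lateral and dorsal ends. In C12, C13, Co14 and Co15 it stood at −0.44, −0.85, −0.70 and −0.88, and in Co16 at −1.37. At the frontal and striatal level it ran from −3.99 over a median of −3.09 to −2.63, and in c1 to c7 from −6.56 over −5.68 to −3.61. The rostral end was higher than c1 to c11 by 3.92 ± 0.29 (15.1-fold, adjusted p = 1.9e-12) and higher than the frontal and striatal level by 2.48 ± 0.33 (5.59-fold, adjusted p = 2.7e-07). The frontal and striatal level was higher than c1 to c7 by 2.26 ± 0.24 (4.78-fold, adjusted p = 2.8e-09). With normexp and quantile normalization these 3 differences were 2.54, 1.87 and 1.06, all still past the threshold. Behind the bulb Igfbpl1 had a crest at c9 and c10, with −2.69 and −2.79 in C9 and C10 and −2.63 and −2.89 in Co10 and Co11, and dipped to −3.28 and −3.48 in C11 and Co12 before the bulb.

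A dimmer Igfbpl1 probe was well above background on 9 arrays, 4 of them the rostral ones and 0 of them in c1 to c11. For a probe not well above background on any array of a group only a bound can be given, taken against the lowest signal among probes that were well above background. By that bound the rostral end was at least 6.51-fold higher than c1 to c11 and at least 5.21-fold higher than the frontal and striatal level. This probe was much higher in C13 (−3.28) than in Co14 (−5.88) and Co15 (−6.43), which the brighter probe did not show.

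Top2a (chr11:98992947-99024199) and Ube2c (chr2:164769929-164772902) are shown with the bases just before their annotated starts, as the matched cell cycle genes of the set. The motifs searched are known from cell cycle promoters, and they are CCAAT, bound by NF-Y, and TTTGAA, the core of the element called CHR. Sox4 and Sox11, both neuroblast genes, stand beside them for comparison. Sequences are from RefSeq on GRCm38.p6, 5′ to 3′ on the strand of the gene, with capitals for CCAAT or its reverse complement ATTGG and for TTTGAA or its reverse complement TTCAAA.
Top2a, chr11:99024200-99024439, minus strand: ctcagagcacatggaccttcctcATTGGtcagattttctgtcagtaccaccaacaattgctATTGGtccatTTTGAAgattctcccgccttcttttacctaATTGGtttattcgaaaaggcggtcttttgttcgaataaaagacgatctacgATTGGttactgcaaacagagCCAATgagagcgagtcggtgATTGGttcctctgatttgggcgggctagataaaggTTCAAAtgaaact
Ube2c, chr2:164769679-164769928, plus strand: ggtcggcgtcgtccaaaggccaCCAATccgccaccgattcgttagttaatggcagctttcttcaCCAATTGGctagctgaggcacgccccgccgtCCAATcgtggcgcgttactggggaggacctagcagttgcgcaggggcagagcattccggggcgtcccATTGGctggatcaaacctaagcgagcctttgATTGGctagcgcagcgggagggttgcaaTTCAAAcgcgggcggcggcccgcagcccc
Sox4, chr13:28953700-28953949, minus strand: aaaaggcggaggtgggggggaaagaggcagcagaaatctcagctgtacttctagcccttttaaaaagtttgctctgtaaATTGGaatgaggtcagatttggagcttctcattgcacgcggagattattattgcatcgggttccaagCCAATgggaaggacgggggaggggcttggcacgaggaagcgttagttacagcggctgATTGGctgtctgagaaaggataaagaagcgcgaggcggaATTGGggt
Sox11, chr12:27342719-27342968, minus strand: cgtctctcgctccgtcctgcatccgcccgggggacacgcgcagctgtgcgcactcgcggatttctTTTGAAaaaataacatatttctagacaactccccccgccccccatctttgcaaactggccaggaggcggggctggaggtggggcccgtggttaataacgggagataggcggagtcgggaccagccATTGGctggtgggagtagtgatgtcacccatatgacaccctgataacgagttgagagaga

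The Top2a window of 240 bases held 6 CCAAT matches over both strands and 2 TTTGAA matches. The Ube2c window of 250 bases also held 6 CCAAT matches, of which an overlapping pair forms CCAATTGG, and 1 TTTGAA match. Sox4 had 4 and 0, and Sox11 had 1 and 1. Among 32851 windows of 250 bases, 33.8% held at least 1 CCAAT, 0.84% at least 4 and 0.0578% (19 windows) at least 6, while 16.0% held a TTTGAA and 1.81% at least 2. Of the 29 cell cycle genes with a window, 24 held a CCAAT and 10 a TTTGAA, beside 9 and 4 of 16 immature neuron genes. The windows printed were chosen with their matches known, so these shares are a description and no test, and a match of letters is not a bound site.

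Top2a was near the floor of the array. It was well above background on 34 of 61 arrays. In the coronal pairs these were all 8 of the frontal and striatal level, all 4 of the rostral end and 5 of 14 in c1 to c7, and the others were the unpaired Co13 and Co16, 3 S, 2 So, 5 H and 5 Ho arrays. In C8, C9, C10 and C11 it stood at −6.43, −5.36, −4.94 and −6.00, and in Co9 to Co12 at −5.77, −5.05, −5.19 and −5.37. The rostral arrays C12, C13, Co14 and Co15 had −5.90, −6.36, −6.32 and −6.49, each below at least 6 of those 8. In c1 to c7 the arrays ran from −9.04 over a median of −7.47 to −5.51, and the highest of them, Co2, was 1 of the 5 that were well above background. Top2a was thus higher at the frontal and striatal level than in c1 to c7 by 1.77 ± 0.31 (3.41-fold, adjusted p = 2.1e-05). With normexp and quantile normalization the same difference was 0.34 (adjusted p = 0.0025). As only 5 of the 14 arrays in c1 to c7 were well above background, the fold is uncertain. At the rostral end the difference from c1 to c11 was 0.37 ± 0.38 (95% interval −0.40 to 1.14, adjusted p = 0.50), with 0.78 in the C mouse and −0.04 in the Co mouse. Against the frontal and striatal level it was −0.75 ± 0.43 (95% interval −1.62 to 0.12, adjusted p = 0.18).

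Ube2c, well above background on 57 arrays, had its highest coronal fractions in the partners C10 at −3.84 and Co11 at −3.73. The next highest were rostral, C13 and Co14, and the pair mean of c9 (−4.37) lay below those of c12 (−4.28) and c13 (−4.34). The frontal and striatal arrays ran from −4.79 over a median of −4.44 to −3.73, and those of c1 to c7 from −5.81 over −5.39 to −4.59. In C12, C13, Co14 and Co15 Ube2c stood at −4.41, −4.01, −4.14 and −4.68, within the range of the frontal and striatal arrays. It was higher at the frontal and striatal level by 1.03 ± 0.11 (2.04-fold, adjusted p = 9.6e-09) and at the rostral end by 0.68 ± 0.14 (1.60-fold, adjusted p = 2.4e-04, or 0.55 and not past the threshold without the C mouse). With normexp and quantile normalization these were 0.48 and 0.29, both past the threshold. Between the rostral end and the frontal and striatal level the difference was 0.02 ± 0.16 (95% interval −0.30 to 0.34, adjusted p = 0.94). For Dcx, Sox4 and Igfbpl1 the lower limits of the same difference were 2.40, 1.60 and 1.81, all above the upper limits of Ube2c and Top2a, whereas that of Sox11, 0.27, lay below the upper limit of Ube2c.

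**Figure D2:**
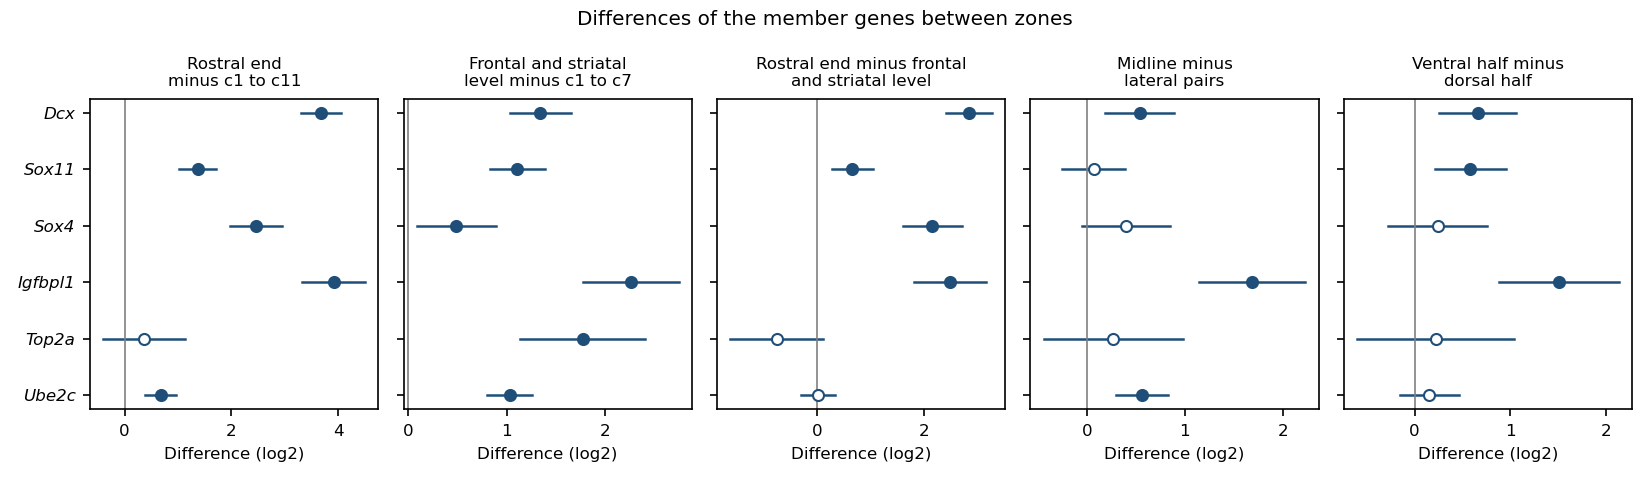
Log2 differences between zones for the 6 genes (horizontal axis, 1 panel per comparison) with 95% confidence intervals from limma. Filled points passed an adjusted p under 0.05 and open points did not. For the rostral end minus the frontal and striatal level, Dcx, Sox4 and Igfbpl1 lie between 2.15 and 2.83, while Top2a (−0.75) and Ube2c (0.02) have intervals that include 0.

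Slide and scan day move with position. The arrays lay on 16 slides and were scanned on 5 days, C1 to C12 on 1 day, C13 with the horizontal series on another and all Co fractions on yet another. Within 1 scan day, the Co mouse alone had rostral differences of 3.77 for Dcx, 1.10 for Sox11, 2.35 for Sox4, 3.83 for Igfbpl1, −0.04 for Top2a and 0.55 for Ube2c. C12 against C1 to C11 gave 3.55, 1.26, 1.81, 4.21, 1.02 and 0.60. The interaction of mouse and zone was tested for the 6 genes in the 3 planes, and 0 of 18 tests passed by limma after adjustment (1 at an unadjusted p under 0.05), where 0.0191% of probes passed at the rostral end, 0.00% at the midline and 0.0492% in the ventral pairs. The spread in these tests was that between the fractions of a zone, which differ in anatomy. Their SEs were wide, 0.95 for Dcx and 1.4 for Igfbpl1 at the rostral end, so they do not show that the mice agree.

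Genes of other cell types also differed between the coronal zones. At the rostral end, 6 of 7 meningeal and fibroblast genes were higher than in c1 to c11 and 0 lower, where 17.8% of all probes were higher and 20.6% lower (summed linear level 24.2 to 42.8 against 9.63 to 47.3). Of 7 olfactory epithelium genes 4 were higher and 1 lower (1.47 to 4.97 against 0.438 to 1.31), of which Obp1a was well above background on none of the 26 coronal arrays in pairs and Cyp2g1 on 1. Of 5 microglia genes 4 were higher (8.32 to 9.27 against 2.86 to 8.72), of 6 endothelial genes 3 (23.9 to 43.2 against 19.1 to 26.4), and of 4 blood genes 2 (14.9 to 24.6 against 4.09 to 53.8), with 0 lower in each. All 5 choroid plexus genes were lower (1.08 to 1.22 against 0.812 to 23.6). Myelinating oligodendrocyte genes were lower in 6 of 6 cases at the rostral end (100.4 to 151.2 against 143.5 to 428.5, median difference −1.27), at the frontal and striatal level (median −0.58) and at the rostral end against that level (median −0.94). In that last comparison 7 of 7 meningeal (median 1.43), 4 of 4 blood (1.68) and 4 of 6 endothelial genes (0.37) were higher and 5 of 5 choroid plexus genes lower (−1.90). There too, 10 of 11 olfactory bulb genes were higher (4.78) and 8 of 8 striatal genes lower (−2.96). Of 7 oligodendrocyte precursor genes 4 were lower and 1 higher (−0.26). Of all probes, 17.3% were higher and 19.3% lower in that comparison. Of 6 hindbrain genes 5 were lower in each of the 2 zones than behind, and of 6 cerebellar granule neuron genes 4 were lower at the rostral end and 5 at the frontal and striatal level. Of the microglia genes 5 of 5 were higher at the frontal and striatal level (18.0% of all probes higher and 21.0% lower), while 6 of 7 meningeal, 4 of 6 endothelial and 4 of 4 blood genes were lower. The part of these cells in the levels of the 6 genes was not tested.

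The wider list of immature neuron genes, 26 tested of 28 listed, moved like the 4 neuroblast genes only in part. At the rostral end 18 were higher and 4 lower (median 1.07), at the frontal and striatal level 14 and 5 (median 0.27), and between the 2 zones 19 and 3 in favor of the rostral end (median 0.89). Of the list these are 69.2% and 15.4%, 53.8% and 19.2%, and 73.1% and 11.5%, beside 17.8% and 20.6%, 18.0% and 21.0%, and 17.3% and 19.3% of all probes, so that the share lower at the frontal and striatal level is near the background. Without the 4 neuroblast genes, 14 and 4, 10 and 5, and 15 and 3 of 22 remained, with medians of 0.75, 0.11 and 0.82. Beyond the 4, the largest differences belonged to transcription factors of the inhibitory interneuron lineage. At the rostral end Sp8 was higher by 6.39 ± 0.44, Dlx2 by 5.69 ± 0.27, Dlx1 by 5.63 ± 0.27 and Dlx5 by 4.73 ± 0.17. At the frontal and striatal level Dlx2 was higher by 4.96, Dlx1 by 4.84 and Dlx5 by 4.22, more than the 2.53, 2.55 and 2.04 by which they were higher at the rostral end than at that level. Each of these 3 was well above background on 6 of the 14 arrays in c1 to c7, which makes their folds uncertain there.

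Other members of the list went the opposite way. Neurod1, a factor of excitatory granule neurons in the dentate gyrus and cerebellum, fell by 2.06 at the rostral end and by 2.91 at the frontal and striatal level relative to the fractions behind. Stmn2 and Elavl4, which stay on in mature neurons, fell by 1.25 and 0.92 at the rostral end. Cd24a, a surface protein of neuroblasts and also of ependymal cells, fell by 0.81 at the frontal and striatal level and was higher by 1.97 at the rostral end relative to that level. St8sia2, an enzyme that makes polysialic acid, was higher by 0.62 at the frontal and striatal level and lower by 0.65 at the rostral end relative to it (adjusted p = 0.011). Fabp7, Hes5 and Pax6 of the list of 14 neural stem and transit cell genes were higher at the rostral end by 3.45, 2.06 and 1.17, and in all 7 of that list were higher there and 1, Thbs4, lower. At the frontal and striatal level 2 of the 14, Thbs4 (2.44) and Hes5 (1.31), were higher and 5 lower (Pax6, Gfap, Fabp7, Prom1 and Egfr), with a median of −0.22. Of all probes, 17.8% were higher and 20.6% lower at the rostral end and 18.0% and 21.0% at the frontal and striatal level, where 14.3% and 35.7% of this list were.

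The cell cycle list, 31 genes tested of 34 listed, split between the zones. At the frontal and striatal level 15 were higher and 1 lower (median 0.24), and at the rostral end 11 and 4 (median 0.29). These are 48.4% and 3.23% of the list beside 18.0% and 21.0% of all probes, and 35.5% and 12.9% beside 17.8% and 20.6%. Without Top2a and Ube2c these counts were 13 and 1, and 10 and 4, of 29. Between the rostral end and the frontal and striatal level 6 were higher and 9 lower, with a median of 0.00. These are 19.4% and 29.0% of the list, beside 17.3% and 19.3% of all probes. With the mouse as a replicate block the higher count was 10, where 23.8% of all probes were higher, and the lower count was 5 without the C mouse (16.7% of all probes lower) and 5 without the Co mouse (18.8%), so that 5 of 31 is near the background.

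Higher at the rostral end than at the frontal and striatal level were Mcm6 (0.69 ± 0.11) and Mcm7 (0.67 ± 0.07), subunits of the replicative helicase, Pcna (0.40 ± 0.06), the sliding clamp of DNA polymerase, and Tyms (0.37), which makes thymidylate, together with Bub1b (0.79 ± 0.19) and Prc1 (0.55 ± 0.11), which act in mitosis. Lower there were Kif11, Kif20a, Birc5, Plk1, Tpx2, Aurka and Racgap1, which act at the spindle or in cytokinesis and fell by 0.29 to 0.92, and Ccne1, a cyclin of the entry into S phase, which fell by 0.99. Hmmr was also lower, at least 2.06-fold by the bound, but only 2 of the 8 frontal and striatal arrays measured it. Kif11 was well above background on 2 of the 4 rostral arrays. Mcm6, Mcm7 and Pcna differed between the frontal and striatal level and c1 to c7 by −0.05, −0.08 and −0.04, none past the threshold. The roles given describe single genes, and no sublist by role was fixed or tested. Between the rostral end and the frontal and striatal level the higher share of the list (19.4%) was near that of all probes (17.3%). The lower share was near the background without either coronal mouse.

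At the frontal and striatal level the largest differences of the list, on the main scale, were those of Top2a (1.77), Ccnb1 (1.35 ± 0.38, adjusted p = 0.0049), Ccnd2 (1.28 ± 0.10) and then Ube2c and Ccna2 (1.03 each). With normexp and quantile normalization Top2a, at 0.34, came below Ube2c, at 0.48. Ccnb1 and Ccna2 are cyclins of mitosis and of S phase to mitosis, and Ccnd2 is a cyclin of the first gap phase. Mcm2 was the gene that fell, by 0.43. At the rostral end Nusap1, a spindle protein, was higher by 1.07 ± 0.24 and Ccnd2 by 0.81 ± 0.12. Aurkb was not well above background on any array, and Cenpf, like Mki67, had no matched probe.

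**Figure D3:**
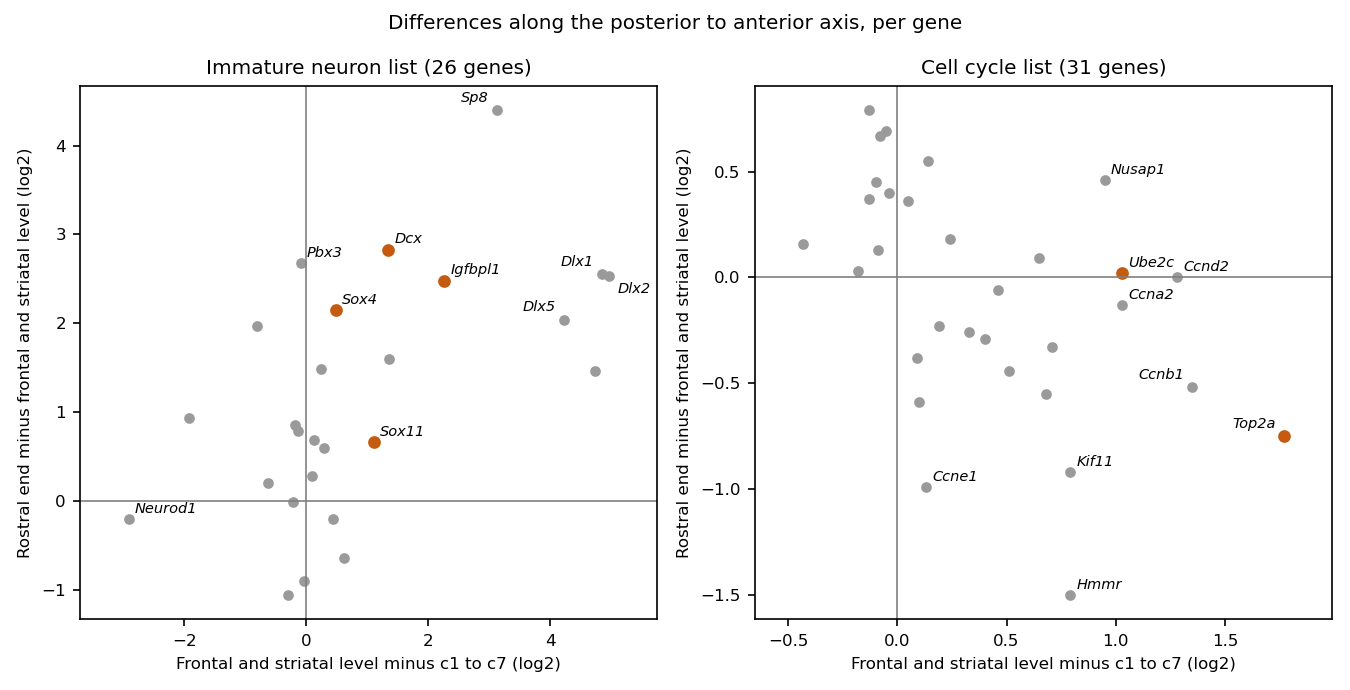
Each point is 1 gene of the immature neuron list (left) or of the cell cycle list (right), orange for the genes of the main set. The horizontal axis is the log2 difference between the frontal and striatal level and c1 to c7, and the vertical axis that between the rostral end and the frontal and striatal level. The 2 axes share the frontal and striatal arrays, which pulls points toward opposite signs. Dcx, Sox4 and Igfbpl1 lie above 2 on the vertical axis, Ube2c at 0.02 and Top2a at −0.75.

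Across the sagittal series the zone was the 3 middle pairs s4 to s6 (6 arrays) against the 6 outer pairs (12 arrays). Of the 6 genes, 3 were higher at the midline and 0 lower (also at an unadjusted p under 0.05), with 7.67% of all probes higher and 6.26% lower. The median difference was 0.47, beside 0.02 over all probes. Igfbpl1 was higher by 1.69 ± 0.27 (3.22-fold, adjusted p = 3.0e-05), its midline arrays running from −4.06 over −2.70 to −2.06 and the outer ones from −6.53 over −4.37 to −2.46. Ube2c was higher by 0.56 ± 0.13 (1.48-fold, adjusted p = 0.0024), and its highest fraction was S6 at −3.29. Without the S mouse the difference was 0.34 and did not pass the threshold. For Igfbpl1 the dimmer probe gave 0.82 (adjusted p = 0.28), but it was well above background on only 2 of 6 midline and 3 of 12 outer arrays. Normexp and quantile normalization gave 0.88 for Igfbpl1 and 0.24 for Ube2c, both past the threshold. Other cell types moved with the midline too. Higher there, with 0 lower, were 7 of 11 olfactory bulb genes (summed linear level 18.2 to 37.3 against 13.2 to 30.7), 6 of 6 genes of myelinating oligodendrocytes (246.5 to 327.3 against 80.7 to 329.4), 3 of 3 ependymal genes (3.45 to 7.85 against 1.98 to 3.81) and 4 of 6 hindbrain genes (1.10 to 2.79 against 0.141 to 1.74). Their part in the result was not tested.

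Dcx at the midline differed between the mice. In the So mouse So5, So6 and So7 stood at 0.61, 0.40 and 0.11, above all 6 outer fractions in pairs. In the S mouse S4, S5 and S6 had −0.60, 0.72 and 0.01, while S7 had 0.66. The difference was 1.03 in So and 0.05 in S, and 0.54 ± 0.17 in the joint fit (adjusted p = 0.031). The difference between the mice was 0.98 (p = 0.023 and adjusted p = 1 over all probes). The call did not hold with each array scaled to its median (0.46, adjusted p = 0.065), with the second probe (0.26, adjusted p = 0.29) or without the So mouse. It was also lost with s5 alone as the midline (0.80, adjusted p = 0.10) and with s3 to s7 (0.34, adjusted p = 0.16). Sox4 differed by 0.40 ± 0.22 (adjusted p = 0.29, and 0.016 with the mouse as a replicate block), and Sox11 by 0.07 ± 0.16 (95% interval −0.25 to 0.39). Sox11 instead had its highest sagittal fraction in S1, at −1.50, where its partner So2 had −2.61, and S1 was scanned on another day and lay on another slide than S2 to S9.

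Top2a across the sagittal series rested on 5 arrays well above background among the 18 in pairs. S7 at −3.11 was the highest Top2a level of all 61 fractions, and its partner So8 stood at −5.80. The midline difference was 0.27 ± 0.35 (95% interval −0.44 to 0.98, adjusted p = 0.76). With s3 to s7 taken as the midline it was 1.04 (adjusted p = 0.023), and without S7 and So8 it was 0.59 (adjusted p = 0.24).

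In the horizontal series the 3 ventral pairs h4 to h6 (6 arrays) were set against the 3 dorsal pairs h1 to h3 (6 arrays). Of the 6 genes, 3 were higher in the ventral pairs and 0 lower (also at an unadjusted p under 0.05), with 7.38% of all probes higher and 5.20% lower, and a median difference of 0.41 beside −0.01 over all probes. Igfbpl1 was higher by 1.51 ± 0.31 (2.84-fold, adjusted p = 8.2e-04), with 6 of 6 ventral and 5 of 6 dorsal arrays well above background. Dcx was higher by 0.66 ± 0.20 (1.58-fold, adjusted p = 0.024) and Sox11 by 0.58 ± 0.18 (adjusted p = 0.029). For these 3 the groups overlapped. Leaving out the H mouse, the differences of Dcx, Sox11 and Igfbpl1 were 0.56, 0.55 and 1.02 and did not pass the threshold. Without the Ho mouse those of Dcx and Sox11 were 0.76 and 0.61 and did not pass either. Each horizontal pair then held 1 array, so the spread came from the other planes and a lost call does not show that the mice differ. With their second probes Dcx (0.43, adjusted p = 0.098) and Sox11 (0.58, adjusted p = 0.081) did not pass. The dimmer Igfbpl1 probe did not pass either (adjusted p = 0.46). It was well above background on 0 of 6 ventral and 0 of 6 dorsal arrays, so it cannot decide here. With normexp and quantile normalization Igfbpl1 differed by 0.67 (adjusted p = 0.0064). For Sox4, Top2a and Ube2c the differences were 0.24 ± 0.26, 0.22 ± 0.40 and 0.15 ± 0.15, with intervals from −0.28 to 0.76, from −0.60 to 1.04 and from −0.15 to 0.46. Also higher in the ventral pairs, with 0 lower, were 7 of 8 striatal genes (summed linear level 86.3 to 145.0 against 22.95 to 70.6), 6 of 11 olfactory bulb genes (19.8 to 36.0 against 10.6 to 28.7), 6 of 6 genes of myelinating oligodendrocytes (207.1 to 257.6 against 65.5 to 209.2), 5 of 7 of their precursors (26.1 to 29.1 against 17.1 to 24.2), 5 of 6 hindbrain genes (0.435 to 1.90 against 0.119 to 0.304) and 4 of 5 choroid plexus genes (3.72 to 11.9 against 0.688 to 10.6). Of 6 cerebellar granule neuron genes 6 were lower (23.4 to 52.6 against 37.6 to 86.4). Their part in these differences was not tested.

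Within the horizontal series 3 of the 6 genes had their highest fractions in the partners H4 and Ho5. Dcx rose from −0.86 in H2 and −0.95 in Ho3 to 0.68 in H4 and 0.59 in the partner Ho5, and went down to −0.26 in H6 and −0.68 in Ho7. The others were Igfbpl1 and Sox4, with −2.51 and −2.46 for Igfbpl1 and with 0.20 and 0.00 for Sox4. Sox11 instead had its highest level of all 61 fractions in the most ventral H6 (−1.16), but in the Ho mouse its highest fraction was the most dorsal, the unpaired Ho1 (−1.64). Top2a was highest in Ho5 (−4.44) and in H3 (−5.29), and Ube2c likewise in Ho5 (−3.93) and H3 (−4.08), which lie 1 pair apart.

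**Figure D4:**
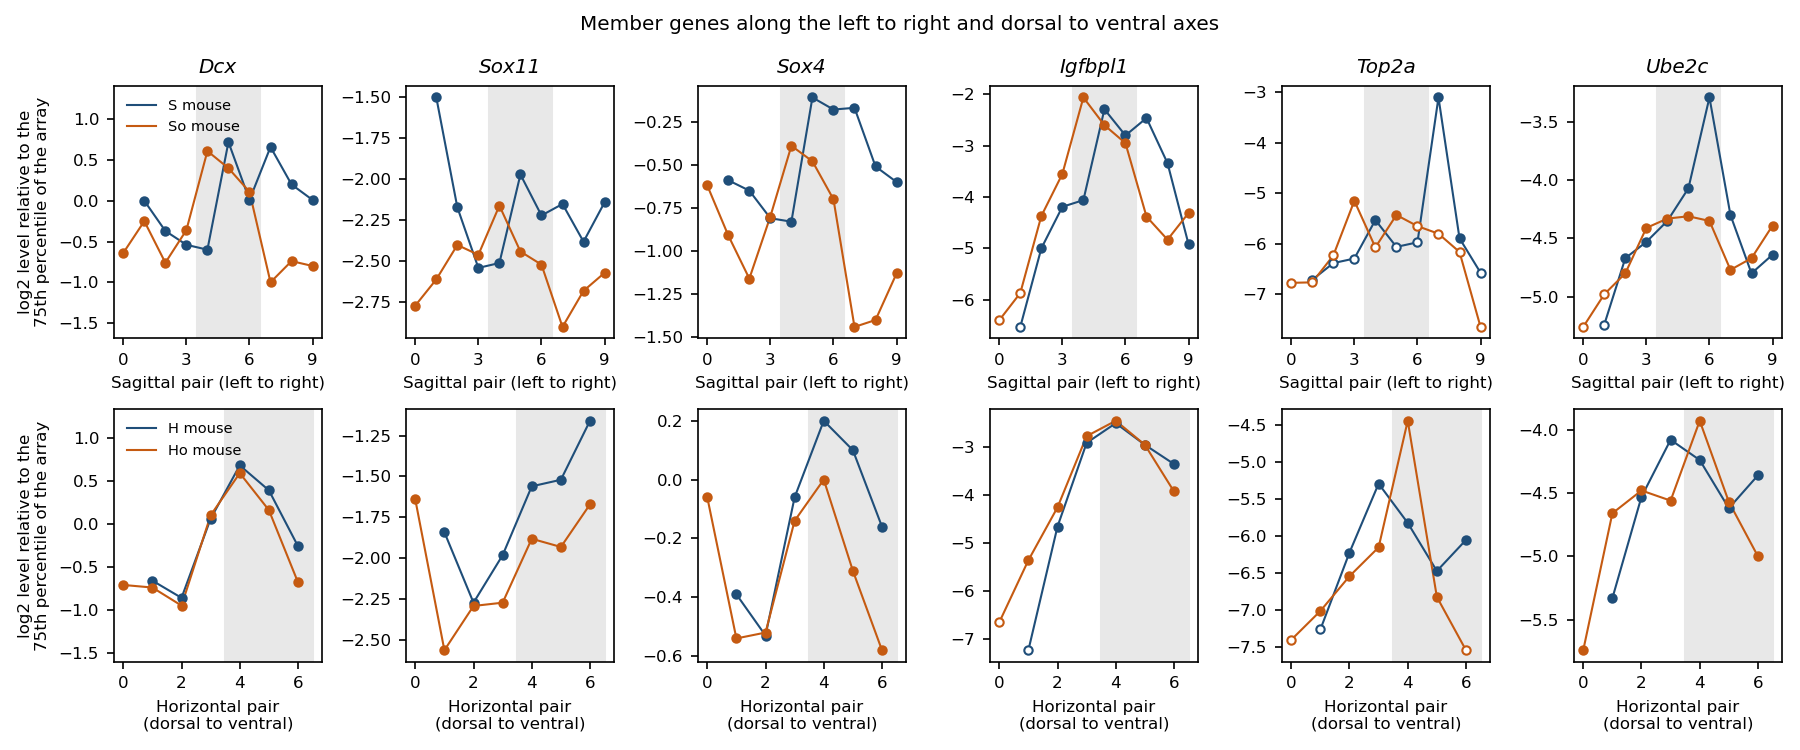
Log2 level of 6 genes relative to the 75th percentile of the array (vertical axes) against the sagittal pair from left to right (top row) and the horizontal pair from dorsal to ventral (bottom row), blue for the S and H mice and orange for the So and Ho mice, 1 point per array. Open points were not well above background, the grey bands mark pairs 4 to 6, and So1 and Ho1 stand at 0. Top2a has its highest point in S7, at −3.11, and Dcx peaks in H4 and Ho5.

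The scaling of the arrays shifts such counts. With each array scaled to its median, the median of all probes moved from −0.04 to 0.05 at the frontal and striatal level, and of the probes called 59.1% were higher instead of 46.1%. At the midline the share was 34.3% instead of 55.1%, and in the ventral pairs 44.5% instead of 58.7%.

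Over all 28 pairs, the order of the levels put the rostral pairs first for 3 genes. The planes come from different mice and mostly from different slides and scan days. Between planes, position therefore cannot be told apart from mouse and batch. The Sox11 pair means of h1 to h6 ran from −2.28 to −1.41, and those of c1 to c11 from −4.68 to −2.36. Dcx was highest in c12 (pair mean 2.41) and c13 (2.36), and next came h4 at 0.63 and s5 at 0.56. Sox4 was highest in c13 (1.85) and c12 (0.96), followed by h4 at 0.10, and Igfbpl1 in c12 (−0.57) and c13 (−0.87), followed by s5 at −2.44. For each of these 3 genes, c12 and c13 were the only pairs within the 95% interval of the highest. Sox11 was highest in h6 (−1.41), with c13 at −1.71 and h4 at −1.72 among 5 pairs within the interval. Top2a was highest in s7 (−4.45), where the mice differed by 2.68, with 10 pairs within the interval, and Ube2c in c10 (−3.79) with 5. Most neighbors in these orders did not differ beyond their spread. Of the 27 steps from 1 pair to the next, 2 exceeded the margin of the 95% interval for Dcx (0.70), 1 for Sox11 (0.64) and 1 for Igfbpl1 (1.09), and 0 did for Sox4 (0.90), Top2a (1.42) and Ube2c (0.53).

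The moderated F over the 28 pairs was 23.4 for Dcx (adjusted p = 5.8e-12), 17.2 for Igfbpl1 (1.9e-10), 13.4 for Sox11 (3.2e-09), 7.98 for Ube2c (9.1e-07), 5.26 for Sox4 (5.2e-05) and 3.28 for Top2a (0.0026). The F spans the 3 planes, so it takes in differences between planes as well as along them. The p-values of the F and of the contrasts measure the spread between the partner fractions of 2 mice, pooled over the 3 planes. Partners differ slightly in angle and position as well as in animal. For Dcx they differed by up to 0.32 in the coronal and up to 1.65 in the sagittal pairs, and a residual SD of 0.34 served all planes. As the partners were chosen by the correlation of the same array values, that spread is taken between fractions picked for likeness.

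Among 13012 genes well above background on at least 31 arrays, those with a course most like each gene over the 61 fractions were found by Pearson's r, given without a p because the fractions of a brain share slides and position. Dcx ran most closely with Rhcg (r = 0.964), an ammonium transporter, with Sp8 (0.948) and with Otop2 (0.939). Igfbpl1 was closest to Scgn (0.894), which encodes the calcium-binding protein secretagogin, and to Pimreg (0.892) and Cdca7 (0.890). Sox4 was closest to Rep15 (0.939), Inhba (0.885), an activin subunit, and Rpp25 (0.882). Sox11 was closest to Panx1 (0.891), a channel protein, Nptx2 (0.889), a secreted pentraxin of synapses, and Fam163b (0.885).

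For the cell cycle genes, Ube2c ran with Ccna2 (r = 0.880), Pclaf (0.801), a partner of the replication clamp, and Plk1 (0.794), and Top2a with Ccna2 (0.711), Plk1 (0.687) and Inf2 (0.679). Among the 6 genes the closest courses were those of Dcx and Sox4 (r = 0.85), Dcx and Igfbpl1 (0.83) and Igfbpl1 and Ube2c (0.79), and the least alike were Sox4 and Top2a (0.32).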

How the data were processed

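RNA of 61 fractions was hybridized to 61 single-color Agilent whole mouse genome arrays. Spot intensities, deposited by the authors, are the background-subtracted output of Feature Extraction 9.1.3.1 without scaling between arrays, and a second deposited table, scaled per array, served as an alternative. Here, log2 of the deposited intensity was taken, the mean over replicate spots formed and the 75th percentile of the array subtracted, a signal of 762.3 to 2061 units. The number of arrays limits the precision. Of 41174 probes, 36573 were well above background on at least 1 array and were tested, and all 6 matched genes were among them. Probes were named through RefSeq accessions, which matched 22951. Value columns left unused numbered 0.

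A mean per pair was fitted with lmFit and eBayes of limma 3.58.1 in R 4.3.3 (28 residual degrees of freedom), with a moderated F test and 5 contrasts between zones, after the one-way ANOVA over pairs of the methods. A call is an adjusted p under 0.05. The fit was tested on simulated data. Summaries used Python 3.11.15 with numpy 2.4.6 and pandas 2.3.3.

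The arrays of a series come from 1 mouse, which pairs them. Differences between the partner fractions correlated across the pairs of a plane with a median r of 0.33 (coronal, 71 of 78 over 0.1), 0.23 (sagittal, 32 of 36) and 0.11 (horizontal, 12 of 15), and the mouse as a replicate block was an alternative.

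The genes and the 18 lists (164 of 181 genes matched) were chosen with earlier results of these data known. Named are the genes of the main set, up to 4 genes of a list with the largest differences among those called, and for each gene the 3 genes with the most similar course. Genes named beyond that rule, such as Cd24a, St8sia2, Pcna and the stem cell genes, were chosen after their values were seen. Alternatives were other scalings, normexp with an offset of 50, probe filters, blocks for slide and scan day, no moderation, second probes, other zone limits, unpaired fractions and leaving out mice or fractions. With a mouse left out, each pair of its plane holds 1 array, so the spread for its tests comes from the other planes. Mki67 is not analysed here, and 1 gene that the rule would name is not reported here.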

Additional observations from a re-analysis of the deposited data

Results flagged for a closer look

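Top2a in S7, at −3.11 (log2 relative to the 75th percentile of the array), lay far from the other 8 fractions of the S mouse, of which the next highest was S4 at −5.53. The gap was 0.67 of the range of the 9 fractions, past the 95% critical value of Dixon's test, which chance exceeds in about 1 of 20 groups. It was the only such value in 48 checks, of the highest and the lowest fraction in 24 groups (the 6 genes in the S, So, H and Ho mice), and 1 in 24 is about what chance gives. The C and Co mice, with more than 10 fractions each, were not checked. Its partner So8 stood at −5.80 and was not well above background. Of 31 cell cycle genes, 4 (Top2a, Plk1, Kif20a and Mcm7) were highest in S7 among the S fractions, and 19 lay above their median over the other S fractions, by a median of 0.02 over the list. S7 shared a slide with 3 other S fractions, S6, S8 and S9.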

How the results depend on the processing

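Over 30 differences of single genes, 527 alternative values kept the direction and the side of the threshold in 463 cases, lost a call in 36 and gained one in 5. The 463 include second probe values of Top2a that repeat the main ones and could not differ. Its other probe was well above background on 0 arrays and was not tested. Sign turned in 17, none of them a called difference, and 6 values of single mice within 1 scan day, which have no test, moved by more than the spread: Dcx at the midline (0.05 in S, 1.03 in So), Sox4 there (0.17 in S), at the rostral end (1.81 in C) and against the frontal and striatal level (1.52 in C), and Sox11 in that last comparison (0.28 in Co). Restricting the tests to probes well above background on all arrays leaves 3 of the 6 genes. Thus 3 varied over the pairs, 3 were higher at the rostral end, 3 at the frontal and striatal level and 1 at the midline. Of all probes so filtered, 66.2% varied, and 24.27%, 24.75% and 9.97% were higher in these 3 comparisons. Of the list genes that the filter left, 7 immature neuron and 9 cell cycle genes were higher at the frontal and striatal level. At the midline 1 gene was higher with s5 alone, where 1.79% of all probes were higher beside 7.67% in the main fit, and 1 with the second probes. In the ventral pairs the count was 0 with the second probes, of which that of Igfbpl1 was not well above background on any of these arrays. It was 0 without the H mouse (2.5% of all probes higher) and 1 without the Ho mouse (4.0%). It was also 1 without the C or the Co mouse (8.93% each), beside 7.38% of all probes in the main fit. Leaving out a coronal mouse keeps the horizontal pair means and changes only the pooled spread with its degrees of freedom, and the adjustment over probes. When fractions were left out one at a time the count was 1 to 3. The cause of the other changes was not tested. For the cell cycle list between the rostral end and the frontal and striatal level, the mouse as a replicate block gave 10 higher genes (23.8% of all probes higher), and leaving out the C or the Co mouse gave 5 lower (16.7% and 18.8% of all probes lower). The block changed no other call of a single gene than that of Sox4 at the midline. Uncalled differences near 0 turned sign: Ube2c between those zones with normexp and quantile normalization (−0.02), the scan day as a block (−0.16), the rostral end as c13 (−0.01) or c11 to c13 (−0.10), the other level as c9 to c11 (−0.09), without the C mouse (−0.16) and with a fraction left out (−0.15 to 0.19); Sox11 at the midline with median scaling and the table of the authors (−0.01 each), normexp (−0.02), s3 to s7 (−0.08), without the So mouse (−0.09) and with a fraction left out (−0.02 to 0.16); Top2a at the rostral end without the C mouse (−0.04), at the midline with normexp and without the So mouse (−0.03 each) and in the ventral pairs with a fraction left out (−0.02 to 0.47). Values of single mice within 1 scan day, and the midline without S7 and So8, were chosen after seeing the data. The number of mice, 2 per plane, and the dim Top2a probe limit what can be told apart.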
